A study of Homo sapiens with 9 samples.

Results

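The genes described here encode the proteins of the mitochondrial ribosome and were chosen by symbol: MRPL or MRPS, a number and at most a final A, B or C. This family and the related lists below were chosen with earlier results of these data known. Of 77 RefSeq symbols of this form, 68 had an array row that names a single gene, and these 68 are the members, among 17047 genes so measured. The other 9 (MRPL3, MRPL45, MRPL53, MRPL57, MRPS6, MRPS12, MRPS18A, MRPS18C and MRPS28) had only rows that name several genes and are not analysed here. By symbol, 45 members belong to the large subunit and 23 to the small subunit. Of the 68, 67 passed a filter that leaves out the 25% of genes with the lowest mean level. MRPS31, whose intensity lay between 51.9 and 70.6, did not pass and was not tested.

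The cells were A375P, an established line of human melanoma that carries a mutant BRAF, and RNA was read on a gene-level exon array. They received the solvent DMSO, 1 µM of the MEK inhibitor PD184352 or 0.4 µM of the RAF inhibitor PLX4720 for 2, 6 or 24 h, to find the genes that depend on BRAF and MEK signalling. Each of the 9 pairings of treatment with time has 1 deposited column, called an array here. The design text speaks of triplicates, and the sources used here do not say whether a column averages them. All groups share the 1 cell line and differ in compound and time. Of 10 melanocyte and melanoma markers, 7 had a row and 6 passed the filter, among them PMEL (1186.4 to 2320.5), SOX10 (840.9 to 1767.9) and MITF (638.4 to 1385.6), while TYRP1 (33.9 to 133.5) did not. ERBB3 (767.8 to 2482.2), S100B (186.4 to 664.2) and the dim MLANA (74.9 to 120.0) also passed. The summed melanocyte and melanoma list was at 5142.2 to 5333.9 with DMSO, 4618.1 to 8150.0 with PD184352 and 5117.4 to 7389.5 with PLX4720. Of the markers of other cell types with a row, 2 of 5 leukocyte, 4 of 5 fibroblast, 2 of 4 keratinocyte and 3 of 5 endothelial genes passed the filter. The leukocyte genes PTPRC, CD3E and LYZ, the fibroblast gene DCN, the keratinocyte genes DSG3 and KRT1 and the endothelial genes PECAM1 and TEK did not. Among those that passed, CD68, a lysosomal protein abundant in macrophages, was bright (1216.3 to 2102.7) and the others lay between 61.5 (LUM) and 305.7 (VWF). The summed leukocyte list, most of it CD68, was at 1424.2 to 2105.9 with DMSO, 1892.8 to 2307.4 with PD184352 and 1705.2 to 2120.2 with PLX4720, and its part in the results was not tested.

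Mitochondrial ribosomes translate the few respiratory-chain proteins that mitochondrial DNA encodes. Their RNA comes from that DNA, but every one of their proteins is encoded in the nucleus, made in the cytosol and imported. Many are homologues of bacterial ribosomal proteins and others occur only in mitochondria. Their genes have been described as targets of MYC and of the nuclear respiratory factors, and they are usually active in growing cells.

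Values are differences of log2(intensity + 1), which understates the change of dim genes. At each time the mean of both inhibitor arrays was set against the DMSO array of that time with limma, on all 12785 genes that passed the filter, and a gene was called at a Benjamini-Hochberg adjusted p below 0.05. The spread in this fit is that between PD184352 and PLX4720 (3 residual degrees of freedom). It is not a spread between cultures, and each DMSO array stands alone. In RNA of a whole culture, a lower level in every cell and fewer cells that use a gene cannot be told apart.

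At 24 h most members were lower with both inhibitors, by modest amounts. Of 67 tested members, 24 fell and 3 rose, where 19.2% of all tested genes fell and 12.5% rose (31.6% called in all). Without regard to the test, 53 members were lower with both inhibitors, against 44.1% of genes, and 8 were higher with both, against 40.0%. The median change was −0.24 over the members (quartiles −0.42 and −0.08), against −0.01 over all tested genes. The largest falls were in MRPL39 (2.00-fold), MRPS23, MRPL18, MRPL50 and MRPL1, and 9 members were at least 1.5-fold lower, against 7.85% of genes. MRPS14, MRPL33 and MRPL44 rose. After quantile normalization 21 members fell and 3 rose, with 17% of all genes lower and 17.6% higher. With the mean of all 3 DMSO arrays as the control 38 fell and 2 rose, against 23% and 15.7%.

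**Figure D1:**
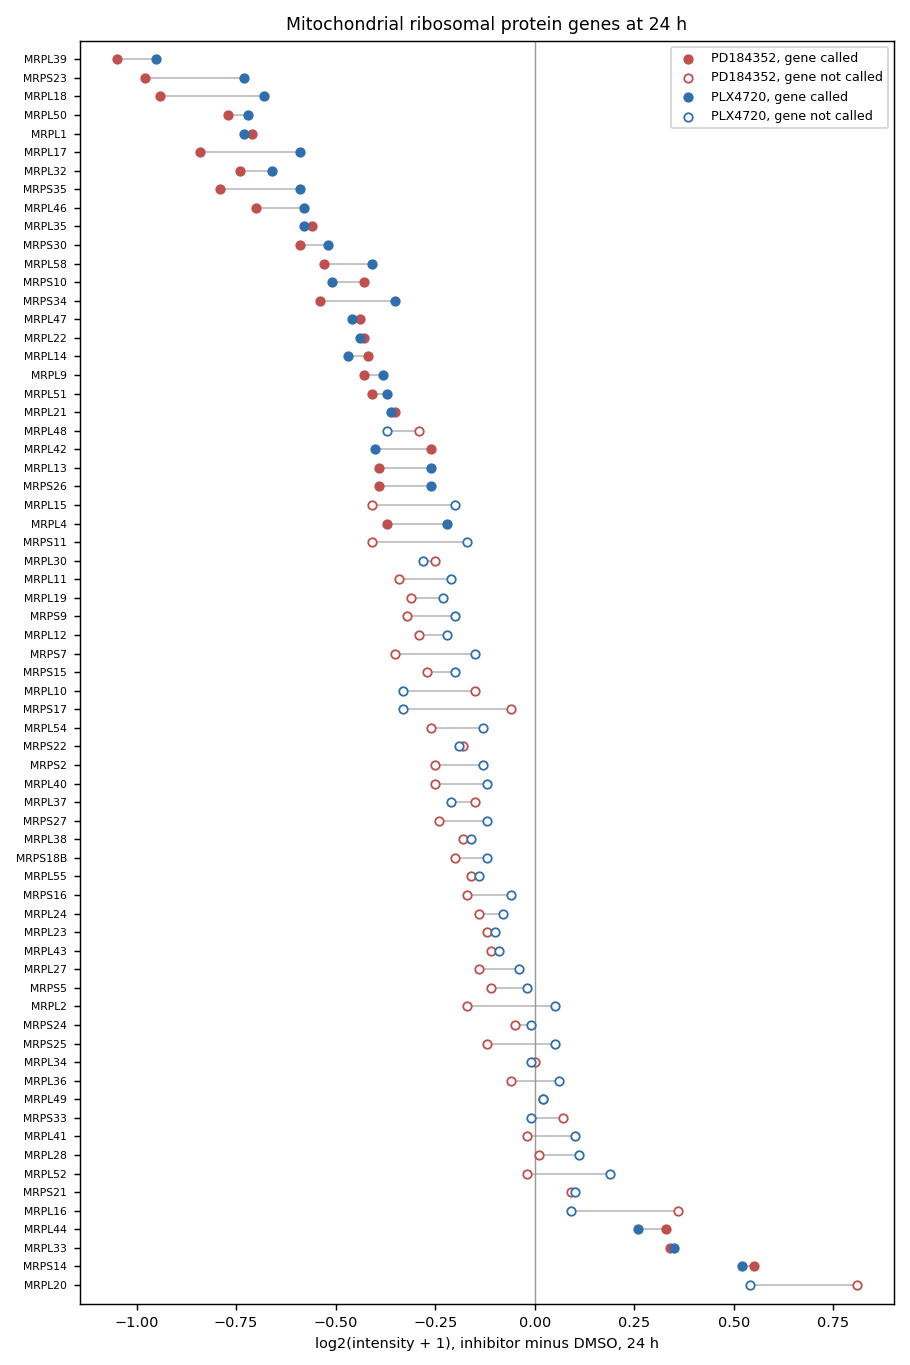
Each row is 1 of the 67 tested members, and the points give the log2(intensity + 1) difference from the DMSO array at 24 h for PD184352 (red) and PLX4720 (blue), filled where limma called the gene. The called falls run from MRPL39, near −1.0, to MRPL4, at −0.30, and the called rises are MRPL44, MRPL33 and MRPS14, while MRPL20 lies furthest right and was not called.

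MRPL39, a large-subunit protein without a bacterial homologue, had intensities of 140.0, 190.2 and 168.2 with DMSO at 2, 6 and 24 h, of 156.4, 159.9 and 80.4 with PD184352, and of 166.3, 157.0 and 86.7 with PLX4720. Both inhibitor arrays of 24 h lay below the other 7 arrays. The change at 24 h was −1.0 (SE 0.09, adjusted p = 2.65e-05 by limma, 95% interval −1.20 to −0.80).

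MRPL18, a large-subunit protein with a bacterial homologue, stood at 289.3, 326.2 and 344.4 with DMSO, at 302.9, 298.5 and 178.6 with PD184352 and at 314.4, 301.8 and 214.9 with PLX4720. The 6 arrays of 2 and 6 h and the DMSO 24 h array thus stayed within a narrow band above both inhibitor arrays of 24 h. Its change was −0.81 (SE 0.11, adjusted p = 0.000349 by limma). MRPL50, found only in mitochondrial ribosomes, went from 437.7 with DMSO at 24 h to 256.1 with PD184352 and 265.9 with PLX4720, a change of −0.74 (SE 0.08). Here the inhibitor arrays were already lower at 6 h, at 323.4 and 315.4 against 403.9.

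MRPL1, whose bacterial counterpart forms the mobile stalk beside the exit site for spent tRNA, read 131.5, 132.3 and 111.3 with DMSO, 110.7, 106.2 and 67.8 with PD184352 and 117.7, 124.0 and 66.6 with PLX4720. Its inhibitor arrays were below the DMSO array at every time, with a change of −0.72 (SE 0.10) at 24 h. MRPL17 was at 328.4 with DMSO, 183.4 with PD184352 and 217.5 with PLX4720 at 24 h (−0.71, SE 0.12). MRPS35, a small-subunit protein, was at 1038.6, 602.0 and 687.8 (−0.69, SE 0.11), and MRPL46, part of the central protuberance of the large subunit, at 970.1, 596.3 and 647.4 (−0.64, SE 0.12). In each of these the pair of inhibitor arrays was the lowest of the 9.

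MRPS23, a small-subunit protein without a bacterial homologue, and MRPL32, whose precursor is cut by a protease of the inner mitochondrial membrane, also fell, by 0.86 (SE 0.13) and 0.70 (SE 0.12) on the log2 scale. Their DMSO level differed with time. MRPS23 read 342.4, 442.1 and 524.1 with DMSO, 359.2, 388.8 and 264.5 with PD184352 and 394.0, 334.1 and 315.6 with PLX4720. MRPL32 read 205.9, 274.9 and 282.2 with DMSO, 201.9, 191.5 and 168.9 with PD184352 and 245.6, 210.5 and 178.7 with PLX4720. With the DMSO 2 h array as the control, both stood at −0.24 and were not called (adjusted p = 0.175 and 0.150 by limma).

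Smaller falls included MRPL35 (−0.57, SE 0.09), MRPS30 (−0.56, SE 0.09), MRPS10 (−0.47, SE 0.09) and MRPL58 (−0.47, SE 0.10). MRPL58 is a peptidyl-tRNA hydrolase that frees stalled mitochondrial ribosomes and became part of the large subunit. MRPS30 bears a small-subunit name, but structures of the ribosome place it in the large subunit. Its intensity was 740.0, 656.1 and 755.5 with DMSO, 668.4, 500.7 and 502.1 with PD184352 and 691.4, 519.5 and 525.0 with PLX4720, so that it was as low at 6 h as at 24 h.

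**Figure D2:**
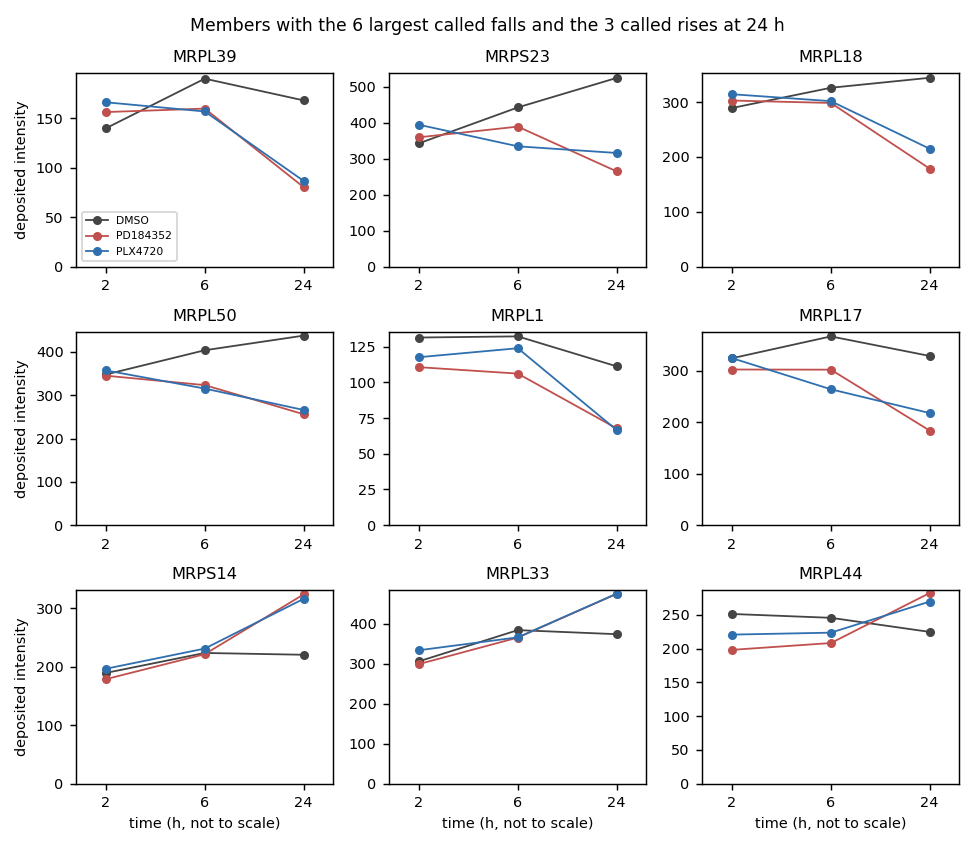
Deposited intensity by time for the 6 members with the largest called falls and the 3 with called rises, with 1 point per array (DMSO dark grey, PD184352 red, PLX4720 blue) and no error bars, since there was 1 array per point. MRPL39 stays between 140.0 and 190.2 except on both inhibitor arrays of 24 h, while the DMSO level of MRPS23 climbs from 342.4 to 524.1.

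The 3 members that rose belong to both subunits. MRPS14, a small-subunit protein with a bacterial homologue, read 189.1, 223.2 and 220.1 with DMSO, 178.4, 221.1 and 323.3 with PD184352 and 196.2, 230.7 and 315.7 with PLX4720. Both inhibitor arrays of 24 h were above the other 7, and the change was 0.54 (SE 0.09, adjusted p = 0.00142 by limma). MRPL33 was at 374.2 with DMSO at 24 h, 475.2 with PD184352 and 475.7 with PLX4720 (0.34, SE 0.09). MRPL44, which carries a domain like that of an RNA-cutting nuclease, was at 224.8, 282.5 and 269.8 (0.30, SE 0.10, adjusted p = 0.0428 by limma). It lost its call under 7 of 18 alternatives, of which leaving out the DMSO 2 h or 6 h array could not change it. Its change was 0.13 with the DMSO 2 h array as the control (adjusted p = 0.339 by limma), 0.17 with the DMSO 6 h array and 0.20 with the mean of all DMSO arrays. Without the PD184352 6 h, PD184352 24 h or PLX4720 6 h array it was 0.30, 0.26 and 0.30, and with no filter on dim genes 0.30.

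MRPL20, a large-subunit protein that binds ribosomal RNA early in assembly in bacteria, had the largest spread. It read 142.1, 197.9 and 91.8 with DMSO, 116.6, 81.2 and 161.2 with PD184352 and 54.4, 133.3 and 134.0 with PLX4720. Its values crossed between treatments, and the change of 0.67 at 24 h (SE 0.37) did not pass (adjusted p = 0.213 by limma).

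Several calls rest on 1 control array or 1 setting. MRPL22 was at −0.44 (SE 0.13, adjusted p = 0.0314 by limma), but at 0.15 when its second, dim row was averaged in. With the DMSO 2 h array as the control, MRPL13 was at 0.03, MRPL51 at −0.19 and MRPL9 at −0.17, none of them called. MRPL4 (−0.30, SE 0.10) kept its call under 8 of 18 alternatives. In all, 15 of the 24 falls and 2 of the 3 rises (MRPS14 and MRPL33) were called under every alternative run. The 15 are MRPL1, MRPL14, MRPL17, MRPL18, MRPL21, MRPL35, MRPL39, MRPL46, MRPL47, MRPL50, MRPL58, MRPS10, MRPS30, MRPS34 and MRPS35. For MRPL1 and MRPL39 the alternatives run were 17 rather than 18. A filter that leaves out the dimmer 50% of genes left both untested. The alternatives counted include leaving out the DMSO 2 h or 6 h array, which could not change a call at 24 h. The DMSO 24 h array, on which every one of these calls rests, could not be left out.

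Since DMSO at 24 h was 1 array, the inhibitor arrays of 24 h were also set against the DMSO arrays of all times. For 46 of 67 members both inhibitor arrays of 24 h lay below all 3 DMSO arrays, which held for 30.6% of all tested genes, and for 3 members both lay above, against 27.7%. For 41 members they were the lowest of all 9 arrays, against 22.6% of genes. Of the 24 members called lower, 23 were below all 3 DMSO arrays and 21 below the other 7 arrays. These 24 were called from the same inhibitor arrays of 24 h, so their counts are no separate check. Between DMSO arrays the median member difference was 0.03 for 24 h minus 2 h, with a range of −0.63 to 0.61, and −0.04 for 24 h minus 6 h, with a range of −1.10 to 0.24. With the DMSO 6 h array as the control at 24 h the median member change was −0.33 and 36 members fell, against 23.7% of all genes. With the DMSO 2 h array it was −0.22 and 29 fell, against 19.2%. At the bright end, the 99th percentile lay at 1681 to 1754 with DMSO and at 1550 to 1654 with inhibitor, and its part in these differences was not tested.

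By subunit, the share that fell at 24 h is to be read against the 19.2% of all tested genes. Among large-subunit symbols 18 of 45 fell (40%) and 2 rose, with a median of −0.27, and among small-subunit symbols 6 of 22 fell (27.3%) and 1 rose, with a median of −0.19. Of 40 members with a bacterial homologue 13 fell (32.5%) and 2 rose (median −0.25), and of the other 27 members 11 fell (40.7%) and 1 rose (median −0.19). No test of the difference between these groups was made.

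Proteins that sit together in the ribosome are given here as a description, grouped after their values were seen. The stalk that recruits translation factors is built from MRPL10, MRPL11 and MRPL12, which were at −0.24 (SE 0.11), −0.27 (SE 0.10) and −0.26 (SE 0.09), and none passed. Around the exit of the peptide tunnel, MRPL17, MRPL22 and MRPL47 (−0.45, SE 0.09) fell, while MRPL23 and MRPL24, both at −0.11 (SE 0.09), did not pass. Of the 3 paralogs MRPS18A, MRPS18B and MRPS18C, only MRPS18B had a row of its own. It was at −0.16 (SE 0.09), which did not pass. MRPL2, MRPS24, MRPS25, MRPL34, MRPL36 and MRPL49 lay between −0.06 and 0.02, with 95% intervals from −0.32 at the lowest to 0.25 at the highest. The rows used for MRPL10 and MRPL36 may not read those genes, as described next.

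Of the members, 6 had more than 1 row, and the brightest row was used. For MRPL10 it changed by −0.24 and the second row by −0.04. For MRPL36 the used row was at 0.00 and the second at −0.22. MRPS11 was at −0.29 and −0.44. The second rows of MRPL22 and MRPL2 went the other way, at 0.74 against −0.44 and at 0.30 against −0.06, and the further rows of MRPL30 were at −0.06, −0.09 and 0.06 against −0.27. These rows were dimmer than the used ones on every array. The members' rows are numbered in the order of the chromosomes. The used row of MRPL36, a gene of chromosome 5, falls among rows of chromosome 2, and its second row among those of chromosome 5. The used row of MRPL10 falls among rows of chromosome 5, and its second row among those of chromosome 17. For MRPL2 the used row falls among rows of chromosome 6 and the second row among those of chromosome 12. Whether the used rows of MRPL36 and MRPL10 and the second row of MRPL2 read those genes was not tested. Nor was it tested which transcripts or gene copies the rows of 1 gene read.

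At 6 h no member was called by limma (0 of 67, where 3.29% of all tested genes were), and 10 had an unadjusted p below 0.05, all lower, as did 12.2% of all genes in that direction. The median change was −0.08, against −0.02 over all genes, and 42 members were lower with both inhibitors and 2 higher, where 42.7% and 32.5% of all genes were. The members' median was 0.0021 after quantile normalization, and −0.03 both with centred arrays and with the mean of all DMSO arrays as the control. The −0.02 over all genes is without these steps. Centring moves the change of every gene by the same amount, so it leaves the members' distance from all genes as it was. The lowest were MRPL20 (−0.92, SE 0.37), MRPL32 (−0.45, SE 0.12), MRPL17 (−0.38, SE 0.12), MRPS30 (−0.36, SE 0.09) and MRPL50 (−0.34, SE 0.08), with adjusted p between 0.0523 for MRPS30 and 0.259 for MRPL20. The highest were MRPL15 (0.04), MRPL34 (0.03), MRPL41 (0.03), MRPL52 (0.03) and MRPS24 (0.02). The count of members lower was 5 without the PD184352 24 h array and also 5 without the PLX4720 24 h array, where 4.98% of all genes were lower in each fit. It was 3 with a stricter filter, which leaves out the dimmer 50% of genes, against 5.12%. These counts are near the share of all genes.

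At 2 h no member was called either (0 of 67, against 0.086% of all genes), and 4 had an unadjusted p below 0.05, against 7.41% of genes. The members' median was −0.01, with PD184352 at −0.05 and PLX4720 at 0.03, and 20 members were lower and 16 higher with both compounds, where 39.5% and 27.5% of all genes were. MRPL20 (−0.83), MRPL2 (−0.27), MRPL44 (−0.26), MRPL1 (−0.20) and MRPL10 (−0.17) were the lowest. MRPL15 (0.24), MRPL39 (0.20), MRPS17 (0.19), MRPL52 (0.17) and MRPS23 (0.14) were the highest. With the mean of all DMSO arrays as the control MRPL39 was at −0.03 and MRPS23 at −0.19.

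**Figure D3:**
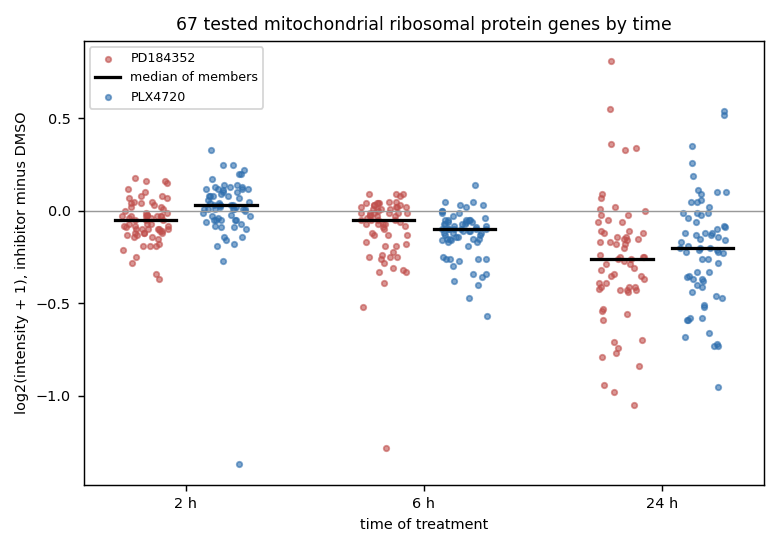
Each point is 1 tested member at 1 time, as its log2(intensity + 1) difference from the DMSO array of that time for PD184352 (red) and PLX4720 (blue), with a black bar at the median. The medians go from −0.05 and 0.03 at 2 h to −0.05 and −0.10 at 6 h and −0.26 and −0.20 at 24 h.

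The change differed between times by limma's F-test for 9 members, where 14.9% of all genes passed (8.14% with a lower and 6.75% with a higher change at 24 h than at 2 h), and all 9 were also called at 24 h. Of these, 7 moved down from 2 h to 24 h, led by MRPL39 (a 24 h change lower than that at 2 h by 1.20, or −1.20), MRPS23 (−0.99) and MRPL18 (−0.90), and MRPS14 (0.55) and MRPL44 (0.56) moved up. Among inhibitor arrays alone, the median member was lower at 24 h than at 6 h by −0.19, against 0.01 for all genes. Averaged over the 3 times, with time as a block, no member was called with either inhibitor by limma (0 of 67, against 0.133% of genes), and 14 had an unadjusted p below 0.05, against 20.3% of genes. Without the DMSO 2 h array the count was 4, and the share of all genes called went from 0.133% to 4.26%.

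PD184352 and PLX4720 were given at different doses, so their values are set side by side. At 24 h the median member change was −0.26 with PD184352 and −0.20 with PLX4720, and for 45 of 67 members PD184352 lay further from 0, as it did for 58.2% of all genes. Of the 24 members that fell, 16 fell further with PD184352. Over the 3 times no member was called between the compounds by limma (0 of 67, and 0 of all genes), and 1, MRPS25, had an unadjusted p below 0.05, against 1.32% of genes (PD184352 minus PLX4720 −0.13, 95% interval −0.25 to −0.01). The largest differences were MRPL15 (−0.20, interval −0.46 to 0.07), MRPL32 (−0.17, interval −0.55 to 0.22), MRPL22 (−0.14, interval −0.43 to 0.16), MRPL20 (0.21, interval −0.82 to 1.24), MRPL16 (0.18, interval −0.01 to 0.36) and MRPL10 (0.09, interval −0.08 to 0.27). At 24 h MRPL16 was at 267.7 with DMSO, 343.0 with PD184352 and 285.3 with PLX4720.

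The promoters of the 3 members with the largest falls and of the member with the largest called rise are shown for comparison. Whether the measured transcripts start at these promoters was not tested. They are RefSeq windows of build GRCh38.p14, from 250 bases before to 50 bases after the annotated start, each 5′ to 3′ on the gene's strand. Capitals mark a match to CCGGAAG, the core bound by many ETS factors including GABPA, or to CACGTG, the E-box bound by MYC and related factors, or to the NRF1 palindrome with any base at its centre, on either strand.
MRPL39, chr21:25607432-25607731, minus strand: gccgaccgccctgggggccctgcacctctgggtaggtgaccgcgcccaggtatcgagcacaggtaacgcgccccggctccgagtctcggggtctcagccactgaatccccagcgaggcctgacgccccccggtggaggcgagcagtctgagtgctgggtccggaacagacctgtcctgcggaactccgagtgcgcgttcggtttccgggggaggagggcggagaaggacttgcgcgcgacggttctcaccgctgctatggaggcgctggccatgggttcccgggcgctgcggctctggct
MRPS23, chr17:57849995-57850294, minus strand: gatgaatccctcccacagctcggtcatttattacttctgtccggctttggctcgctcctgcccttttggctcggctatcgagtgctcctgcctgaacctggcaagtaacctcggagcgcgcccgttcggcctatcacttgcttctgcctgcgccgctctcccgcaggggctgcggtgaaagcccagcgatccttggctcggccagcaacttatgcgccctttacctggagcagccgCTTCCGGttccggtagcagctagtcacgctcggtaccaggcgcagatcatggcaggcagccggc
MRPL18, chr6:159789562-159789861, plus strand: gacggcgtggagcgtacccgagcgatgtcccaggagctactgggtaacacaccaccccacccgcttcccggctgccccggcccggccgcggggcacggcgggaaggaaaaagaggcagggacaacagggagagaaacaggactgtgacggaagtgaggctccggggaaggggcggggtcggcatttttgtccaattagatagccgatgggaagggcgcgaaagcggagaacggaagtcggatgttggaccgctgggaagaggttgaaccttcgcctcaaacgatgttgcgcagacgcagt
MRPS14, chr1:175023376-175023675, minus strand: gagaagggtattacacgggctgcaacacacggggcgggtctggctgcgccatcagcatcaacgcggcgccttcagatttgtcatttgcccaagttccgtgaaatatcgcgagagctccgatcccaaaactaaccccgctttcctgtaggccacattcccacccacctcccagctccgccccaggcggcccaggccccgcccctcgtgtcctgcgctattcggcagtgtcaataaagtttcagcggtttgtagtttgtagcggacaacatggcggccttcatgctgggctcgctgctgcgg
Only the MRPS23 window held a match, a CCGGAAG read on the opposite strand, whose first base as printed in the window is 14 bases before the start. The windows of MRPL39, MRPL18 and MRPS14 held none of these motifs, and their GC content was 70%, 63% and 60%, against 62.3% for MRPS23.

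Of the 68 members, 61 had a promoter entry. CCGGAAG was in 24 of the 61 windows (39.3%), against 10.7% of all 27305 windows in the table. It was in 16.4% of the 10190 windows of tested genes, an incomplete set, since 12785 genes were tested. There were 33 matches in the 24 members, of which 23 began within 50 bases of the start. CACGTG was in 4 members (6.56%, against 7.43% of all windows and 10% of those of tested genes). The NRF1 palindrome with any base at its centre was in 6 (9.84%, against 6.28% and 10.1%). Its exact form was in 1 (1.64%, against 1.36% and 1.94%). The members' median GC content was 61%, against 58.3% over all windows and 65% over those of tested genes. These are counts of letters, not of bound sites.

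CCGGAAG was not limited to members that fell: it was in 7 of 21 windows of members called lower at 24 h (33.3%), in 1 of 3 of members called higher and in 15 of 36 of members not called (41.7%). A site near the start is shown for 5 of the 7 members that fell and hold one, for MRPL33, which rose, and for MRPL16, which did not pass. Each is given with 10 bases either side, read so that the motif in capitals runs 5′ to 3′, with the GRCh38.p14 position and strand of that reading.
MRPS23, chr17:57850042-57850068, plus strand: gctaccggaaCCGGAAGcggctgctcc
MRPS10, chr6:42217867-42217893, minus strand: cgctgtaaccCCGGAAGcaatcctgag
MRPL58, chr17:75012652-75012678, plus strand: gaagcgcccgCCGGAAGcagtcgcaag
MRPS34, chr16:1773137-1773163, plus strand: agcggtccggCCGGAAGtcaccggaag
MRPL47, chr3:179604661-179604687, minus strand: gcttgagacgCCGGAAGtgacgctatc
MRPL33, chr2:27771701-27771727, plus strand: gggccgtgccCCGGAAGcagttgttgt
MRPL16, chr11:59810768-59810794, plus strand: ctcagtggggCCGGAAGttgtgttcac
Distances are counted to the first base of the site on the gene's strand, which can be the last base of the motif as printed here. By this count the site begins 8, 8 and 6 bases before the start in MRPL58, MRPL33 and MRPL16. It begins 14 bases before it in MRPS23, 19 in MRPS34, 22 in MRPS10 and 39 in MRPL47. These sites were chosen for their place near the start. Of the 24 members with a site, 20 had one within 50 bases of the start. Those not shown include MRPS26, which fell, and MRPS31, which was not tested. The rest of them did not pass: MRPL20, MRPL27, MRPL28, MRPL40, MRPL43, MRPL52, MRPL54, MRPS16, MRPS21, MRPS22 and MRPS33. In the remaining members with a site, the nearest lay 104 bases before the start in MRPL51, which fell. It lay 63, 145 and 208 bases before it in MRPL48, MRPL30 and MRPL38, which did not pass.

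Some other genes of mitochondrial translation fell at 24 h. Of the mitochondrial ribosomal proteins under other symbols, CHCHD1 fell (−0.40, SE 0.09), and DAP3, a small-subunit protein that binds GTP (−0.25, SE 0.09), and GADD45GIP1 (−0.25, SE 0.10) did not pass. PTCD3 was under the filter. Of 23 tested genes for the assembly of the ribosome 6 fell (26.1%, against 19.2% of all tested genes) and none rose (median −0.15), among them MTERF3 (−0.82, SE 0.09), FASTKD2 (−0.73, SE 0.10) and the methyltransferases of ribosomal RNA MRM2 (−0.58, SE 0.10) and MRM3 (−0.44, SE 0.09). Of 15 translation factors 4 fell (26.7%) and 1 rose (median −0.14). The elongation factor TSFM was at −0.44 (SE 0.11), the RNA-binding LRPPRC at −0.35 (SE 0.10) and MTFMT, which makes the initiator tRNA's formyl-methionine, at −0.33 (SE 0.11), against the release factor MTRF1 at 0.35 (SE 0.09).

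Genes that maintain and express mitochondrial DNA fell in 11 of 20 cases (55%), and none rose (median −0.34). Of all tested genes, 19.2% fell and 12.5% rose at 24 h. TFAM, which packages mitochondrial DNA and starts its transcription, was at 197.7 with DMSO, 110.9 with PD184352 and 128.2 with PLX4720 at 24 h (−0.72, SE 0.10). TRMT10C, part of the enzyme that frees mitochondrial tRNAs, was at −0.80 (SE 0.15), the RNA-degrading PNPT1 at −0.76 (SE 0.10) and FASTKD3 at −0.71 (SE 0.12). POLRMT, the mitochondrial RNA polymerase, was at 293.0, 287.5 and 298.4 and did not pass, with a 95% interval of −0.19 to 0.19. Of 14 import genes 6 fell (42.9%) and none rose (median −0.27), led by TIMM50 (−0.86, SE 0.11), TIMM10 (−0.76, SE 0.12), the import co-chaperone GRPEL1 (−0.73, SE 0.11) and TIMM17A (−0.61, SE 0.10).

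The respiratory-chain subunits encoded in the nucleus, which join the products of mitochondrial ribosomes in the same complexes, gave another picture. Of 56 tested, 1 fell (1.79%) and 5 rose (8.93%, against 12.5% of all tested genes), with a median of 0.10, against −0.24 for the members. ATP5PD (0.54, SE 0.10), NDUFB3 (0.44, SE 0.12) and COX7B (0.32, SE 0.10) rose, and NDUFAB1, which also serves in ribosome assembly, fell (−0.37, SE 0.08). At 2 h ATP5PD, NDUFB3 and COX7B were at 0.35, −0.53 and 0.31, and at 6 h at 0.09, −0.47 and 0.15, none of them called. Of 52 cytosolic ribosomal protein genes 8 fell (15.4%, under the 19.2% of all tested genes) and none rose, with a median of −0.12, led by RPL27A (−0.81, SE 0.11) and RPLP1 (−0.48, SE 0.10). These genes have many near-identical copies, which the rows may not separate. Of 22 genes of cytosolic ribosome biogenesis 19 fell (86.4%), with a median of −0.67, among them LYAR (−1.57, SE 0.13), RRS1 (−1.18, SE 0.13) and NOLC1 (−1.11, SE 0.10). The lists share their arrays, and no test of the difference between lists was made.

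**Figure D4:**
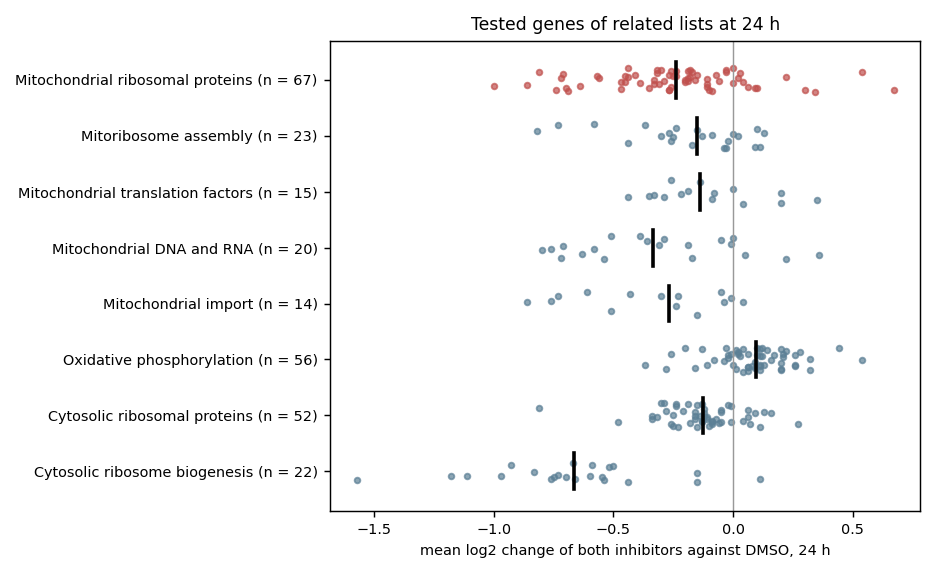
Each point is 1 tested gene of a list, as its mean log2 change with both inhibitors against DMSO at 24 h, with a black bar at the list's median. The members (red, median −0.24) lie between cytosolic ribosome biogenesis (median −0.67) and the nuclear subunits of oxidative phosphorylation (median 0.10).

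Of 7 tested regulators of nuclear genes for mitochondria 4 fell (57.1%) and 1 rose at 24 h, against 19.2% and 12.5% of all tested genes. MYC read 325.6, 341.6 and 378.0 with DMSO, 206.1, 188.5 and 196.2 with PD184352 and 197.2, 205.9 and 220.9 with PLX4720, so that every inhibitor array was below every DMSO array. It was at −0.69 at 2 h, fell by 0.79 at 6 h and by 0.86 (SE 0.10) at 24 h. PPRC1, a coactivator induced by growth signals, read 816.0, 769.2 and 673.6, then 660.3, 539.5 and 321.6, and 719.1, 525.4 and 366.1 in the same order, and fell at 6 h (−0.53) and at 24 h (−0.97, SE 0.10). The related coactivator PPARGC1B fell by 0.92 at 6 h and by 1.09 (SE 0.13) at 24 h.

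PPARGC1A, the coactivator best known for raising respiratory-chain genes, went the other way. It read 186.1, 144.8 and 241.3 with DMSO, 168.5, 262.0 and 838.3 with PD184352 and 201.6, 250.6 and 566.7 with PLX4720, and rose by 0.82 at 6 h (adjusted p = 0.0464 by limma) and by 1.51 (SE 0.19) at 24 h. NRF1 fell at 24 h (−0.36, SE 0.09). GABPA was at 219.6 with DMSO, 216.5 with PD184352 and 207.9 with PLX4720 at 24 h and did not pass (−0.05, SE 0.10), nor did it at 6 h (0.40, adjusted p = 0.0594 by limma).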

How the data were processed

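The deposited values are linear intensities, 1 column for each of 9 samples. RMA, limma and R 2.8.0 are named, with no role given, in the submitters' processing notes. All values were positive, and array medians lay between 98.96 and 102.35. The build behind the rows was not given in the sources used here.

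From these, log2(value + 1) was computed with no further normalization. Of 35446 rows, 19380 named 1 gene, 3339 named several and 12727 none. Each gene was read from its brightest row, and of 17047 genes the 4262 dimmest (25%) were left out. No pair of arrays was identical (0 pairs).

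The tests were limma's (version 3.58.1, R 4.3.3), adjusted by Benjamini-Hochberg over 12785 genes: inhibitor against DMSO at each time (3 residual degrees of freedom) with an F-test between times, and treatment with time as a block (4). Both fits were tested on simulated data. Members and lists were chosen with earlier results of these data known. The named genes were the lowest and highest members by change at each time (12 and 8 at 24 h, and 5 each way at the earlier times), the 3 largest differences each way between compounds, paralogs and other-symbol proteins, up to 4 genes per related list, and 6 regulators. Alternatives covered the filter, pseudocount (16), normalization, rows, variance prior, control array and each array left out.

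Promoter windows came from a RefSeq table (GRCh38.p14) matched by symbol, and motifs were searched on both strands.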

Additional observations from a re-analysis of the deposited data

Results flagged for a closer look

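For 9 members the change with both inhibitors differed between the 3 times by limma's F-test, which is 13.4% of 67, against 14.9% of all tested genes. As the 24 h change minus the 2 h change, MRPL39 was at −1.20 (F-test adjusted p = 0.000709), MRPS23 at −0.99, MRPL18 at −0.90, MRPL32 at −0.81, MRPL50 at −0.76, MRPS35 at −0.70 and MRPL14 at −0.55. MRPS14 was at 0.55 and MRPL44 at 0.56 (F-test adjusted p = 0.0366). The DMSO array of each time stands alone, so a change in 1 DMSO array enters these differences.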

How the results depend on the processing

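With 1 array per treatment and time, the tests rest on the spread between compounds, the number of arrays limits the precision, and any single DMSO array can move a change. No replicate block could be fitted, since no group had more than 1 array, and pairing by time was part of the fit over the 3 times, where leaving the time block out also called 0 members. Of 27 members called at 24 h, 17 were called under every alternative run, though the stricter filter left MRPL1 and MRPL39 untested. Among these alternatives, leaving out the DMSO 2 h or 6 h array could not change a call at 24 h. The DMSO 2 h or 6 h array alone as the control at 24 h was an alternative chosen after seeing the data. The 24 falls at 24 h became 38 with the mean of all DMSO arrays as the control. The median at 24 h, −0.24, was −0.16 after quantile normalization, −0.19 with arrays centred on their medians and −0.33 with the DMSO 6 h array. At 6 h the median, −0.08, was 0.0021 after quantile normalization, −0.03 with centred arrays and −0.03 with the mean of all DMSO arrays. At either time, centring moves the change of every gene by the same amount and leaves the members' distance from all genes as it was. The 0 falls at 6 h became 3 with the stricter filter, 1 with a pseudocount of 16 and 1 with the mean of all DMSO arrays. The median at 2 h, −0.01, was 0.05 after quantile normalization. The 9 members whose change differed between times were 4 with no filter on dim genes, 15 after quantile normalization and 31 with the mean of all DMSO arrays, while the share of all genes went from 14.9% to 8.11%, 17.7% and 34.1%. Leaving out 1 array gave 2 to 5 rises at 24 h (5 without PLX4720 24 h), 0 to 5 falls at 6 h, 6 to 16 members that differed between times (16 without PLX4720 24 h), and 0 to 4 members called over the 3 times (4 without DMSO 2 h).

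Of named members, 24 values changed sign. With the mean of all DMSO arrays, MRPL39 was at −0.03, MRPS23 at −0.19 and MRPS17 at −0.0014 at 2 h, MRPS24 at −0.03 at 6 h and MRPL28 at −0.0032 at 24 h. At 24 h MRPL28 was at −0.02 and MRPS17 at 0.08 with the DMSO 2 h array, and MRPL28 was at −0.06, MRPS21 at −0.02 and MRPL20 at −0.43 with the DMSO 6 h array. Quantile normalization put MRPS24 at 0.08, MRPL34 at 0.09 and MRPL2 at 0.05 at 24 h, and centring put MRPS24 at 0.02 and MRPL34 at 0.04. With the mean of all rows MRPL2 was at 0.12 at 24 h and 0.09 at 2 h, and MRPL22 at 0.15 at 24 h. The second row of MRPL2 may not read that gene. Leaving out 1 array gave −0.02 to 0.19 for MRPL52, −0.02 to 0.1 for MRPL41 and −0.17 to 0.05 for MRPL2 at 24 h, and −0.0077 to 0.05 for MRPS24, −0.0097 to 0.08 for MRPL34 and −0.05 to 0.14 for MRPL15 at 6 h. The cause was not tested.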
